A study of Mus musculus with 36 samples.

Results

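The line described here carries a knockout of hs1467, a limb enhancer, and was profiled in 2 of the 18 H3K27ac peak lists of the study. Its 2 lists, replicate 1 and replicate 2, were set against the 6 lists of 3 sister knockout lines (hs1262, hs1586 and hs1603). Each of these lines has replicate 1 in the same run as hs1467 replicate 1 (called run 3) and replicate 2 in the same run as hs1467 replicate 2 (run 4), so that every comparison could be made within a run. The 8 lists were chosen by genotype and by the run tag in the name of each deposited list, and by no measured value.

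All mice were of strain FVB and were untreated, and each list came from forelimbs pooled from embryos at embryonic day 11.5. The hs1467 embryos are described as enhancer-null for hs1467, and each sister line as null for its own enhancer, so none of the 8 lists is from wild type. The 4 wild-type lists, with 4 of mm1179 KO and 2 of hs72 KO, belong to runs 1 and 2. Against wild type, the hs1467 genotype and the run therefore cannot be told apart. The labels do not say whether the replicates came from separate litters, and a whole-forelimb pool cannot separate fewer cells bearing a mark from less of the mark per cell.

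H3K27ac, acetylation of lysine 27 of histone H3, marks nucleosomes beside active promoters and active distal enhancers, and ChIP-seq peaks for it are places where that mark is enriched over input. An enhancer that has been deleted has no DNA to pull down, so its own peak is absent by construction, and peaks beside it carry the information on neighbouring chromatin. As background, hs1467 is known as an enhancer of the gene desert next to Sox9, the transcription factor needed for cartilage formation, in which many distal enhancers act on the gene. The exact deleted coordinates published for this line were not used here, and no genome or gene annotation of the build of the lists (mm9) was at hand. Hence the interval below is the stretch without peaks in the lists, no bases are printed, and regions are given by coordinates.

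Both hs1467 lists lacked a peak at the same place on chromosome 11. Coverage was read in windows (tiles) of 500 bp, each called in a list where at least 250 bp lay under peaks. A run of adjacent tiles called in all 6 sister lists and in neither hs1467 list is here termed a lost segment. The longest was chr11:111688001-111691500 (3.5 kb, mm9). Peaks covered 0 bp of it in hs1467 replicate 1 and 0 bp in hs1467 replicate 2. A peak lay over it in all 16 other lists, wild type included.

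In run 3 the peak over the segment ran from 111687322 to 111692483 in hs1262 replicate 1, from 111688120 to 111691829 in hs1586 replicate 1 and from 111687118 to 111692487 in hs1603 replicate 1. The peak score given by the authors' peak caller can be ranked only within a list, so each score was expressed as a percentile of all peaks of its own list. These 3 peaks were at percentiles 91.4, 95.9 and 95.5 of their lists, which places them among the strongest peaks of each run 3 sister list. In run 4 the peak ran from 111687272 to 111691575 in hs1262 replicate 2, from 111687191 to 111692659 in hs1586 replicate 2 and from 111688177 to 111691573 in hs1603 replicate 2. Their percentiles were 84.9, 86.7 and 81.0. Over the 10 lists of runs 1 and 2 the percentile ranged from 67.0 to 90.8 with a median of 83.1, and the 4 wild-type lists lay between 67.0 and 89.5. The stretch covered in all 6 sister lists was 3.397 kb (111688177 to 111691573), and that covered in all 16 other lists was 2.481 kb (111688710 to 111691190).

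In hs1467 replicate 1 the nearest peaks ended at 111682909 on the left and began at 111704447 on the right, leaving 21537 bp without a peak. In hs1467 replicate 2 they ended at 111682846 and began at 111704335, leaving 21488 bp. The 2 lists, from different runs, thus ended at nearly the same positions, and the stretch free of peaks in both was 21.425 kb (111682910 to 111704334). These positions were not particular to hs1467. The peaks flanking the segment ended at 111682880 and began at 111704327 in wild type replicate 2, and at 111683261 and 111704065 in hs1603 replicate 2. On the right they began earlier in hs1262 replicate 2 (111699499) and hs1586 replicate 2 (111698991). On the left they ended earlier in wild type replicate 1 (111680388). This stretch is an upper limit set by the next peaks and not the size of the deletion. The map of peaks by list shows the gap and its neighbours.

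**Figure D1:**
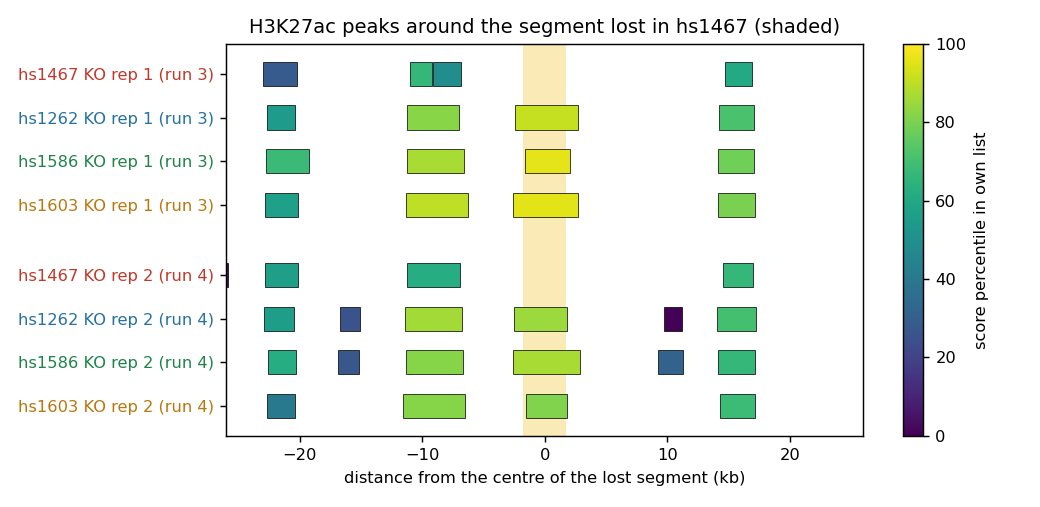
H3K27ac peaks of the 8 lists of runs 3 and 4 by distance in kb from the centre of the lost segment (shaded, 3.5 kb). Each bar is 1 peak, coloured by the percentile of its score within its own list. The 2 hs1467 lists have no bar in the shaded stretch, and their bars at the left neighbour are darker (lower percentile) than those of all sister lists.

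The peak region next to the gap had a lower rank in hs1467 than in any sister list. Stretches under a peak in 2 or more of the 8 lists were taken as consensus regions. Of 59338 such regions, 17912 were called in all 8 lists (shared regions), and within each list these were ranked by their highest peak score and placed on a scale of 0 to 100. The nearest shared region to the left of the gap was chr11:111678358-111683261, which ends 4.739 kb before the lost segment. Its rank in run 3 was 47.2 in hs1467 replicate 1, against 74.4 in hs1262, 81.8 in hs1586 and 85.1 in hs1603. In run 4 it was 38.3 in hs1467 replicate 2, against 79.4, 72.5 and 75.9 in the same order of lines. In each run the hs1467 list lay below all 3 sister lists. That held for 25.7% of all shared regions in run 3, 24.6% in run 4 and 6.01% in both.

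The difference from the mean of the 3 sister lists was -33.2 percentile points in run 3 and -37.6 in run 4. The gap to the lowest sister list was 27.2 points in run 3 and 34.1 in run 4. Ordered by the smaller of the gaps of the 2 runs, this region was first of the 17912 shared regions. In a single run it was less extreme: 342 shared regions had a difference as low or lower in run 3, and 31 in run 4. The largest such gap anywhere was 26.2 points for hs1262, 23.9 for hs1586 and 21.5 for hs1603, each against its own 3 sister lines, so a gap of nearly this size occurs in another line at another locus. This ranking has no test, since 2 lists against 6 within runs allow no p below 1 in 16 and the region was singled out for its position.

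The share of the region under peaks differed as well. In hs1467 replicate 1, 2 peaks covered 83.7% of it, while 1 peak covered 86.8% in hs1262 replicate 1, 96.2% in hs1586 replicate 1 and 98.9% in hs1603 replicate 1. In run 4 the covered share was 88.6% in hs1467 replicate 2 and 95.3%, 96.0% and 100% in hs1262, hs1586 and hs1603. The hs1467 list was lowest in each run, and the 4 wild-type lists, from other runs, had 34.8% to 84.3%. How often hs1467 had the lowest share over all shared regions was not counted. In run 4 each of the 4 lists had 1 peak over the region, so the split into 2 peaks was seen in run 3 only, and 3 of the 4 wild-type lists also had 2 peaks there.

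Read as a percentile of the whole list, the left neighbour stood at 66.5 in hs1467 replicate 1 and 61.8 in hs1467 replicate 2. The sister lists ranged from 82.3 to 90.0 in run 3 and from 81.8 to 86.2 in run 4. In the 4 wild-type lists, however, it ranged from 48.8 to 67.8, and in the 10 lists of runs 1 and 2 from 17.6 to 77.4 with a median of 68.4. The hs1467 values were below their run mates and within the range of wild type in other runs. Because lists of runs 1 and 2 hold other numbers of peaks, the run and the genotype cannot be told apart in this last comparison. The plot over all 18 lists shows both patterns.

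**Figure D2:**
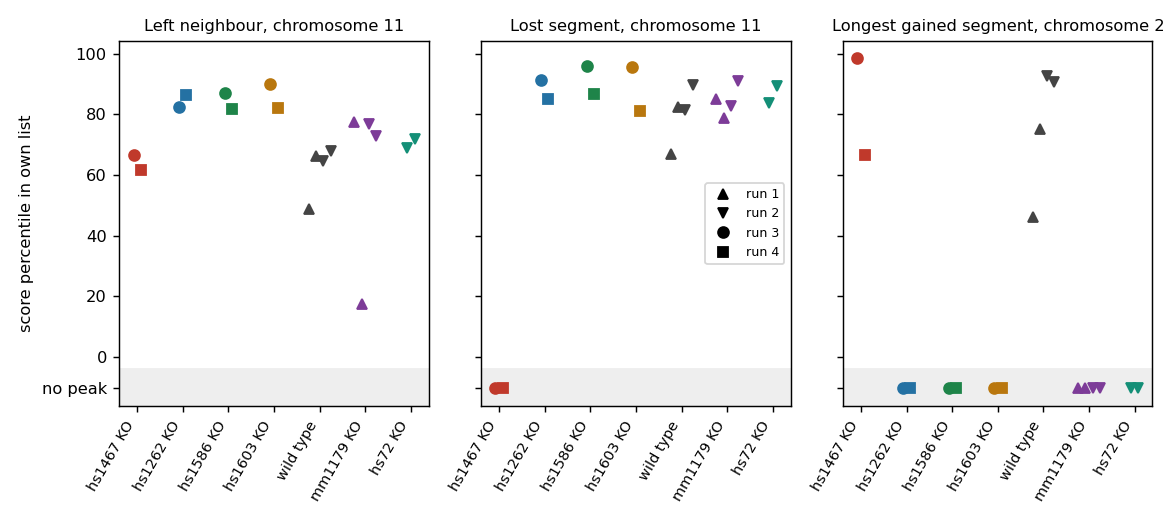
Percentile of the highest peak score within its own list at the left neighbour, the lost segment and the longest gained segment, for all 18 lists by genotype; each point is 1 list, its shape gives the run, and the grey band holds lists without a peak. The left neighbour is at 66.5 and 61.8 in hs1467 and at 81.8 or above in all 6 sister lists; the gained segment has a peak in the hs1467 and wild-type lists only.

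On the right side, the nearest shared region, chr11:111703854-111706947, begins 12.353 kb after the lost segment. Its rank in run 3 was 38.8 in hs1467 replicate 1 and 59.7, 70.1 and 70.2 in hs1262, hs1586 and hs1603. In run 4 it was 47.4 in hs1467 replicate 2 and 49.1, 45.1 and 52.3. The rank was thus below all sisters in run 3 and among them in run 4. Peaks of hs1467 replicate 1 covered 71.2% of this region against 93.8% to 96.3% in the run 3 sister lists, and those of hs1467 replicate 2 covered 78.2% against 93.2% to 100% in run 4. The covered share was lower in hs1467 than in every sister list in both runs. In the 4 wild-type lists, from other runs, it was 53.7% to 75.2%. How often hs1467 had the lowest share over all shared regions was not counted.

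The next shared region to the left, chr11:111666786-111669593, lies at a distance of -18.407 kb. Its rank was 8.67 in hs1467 replicate 1 against 38.0 to 56.5 in the run 3 sister lists, and 28.7 in hs1467 replicate 2 against 12.5 to 36.8 in run 4. The hs1467 list was the lowest in run 3 and lay within the sister lists in run 4. Small regions at chr11:111673044-111674609 and chr11:111699499-111700991 were each called in hs1262 replicate 2 and hs1586 replicate 2 and in no other of the 8 lists, at percentiles of at most 31.0. A further one, chr11:111720041-111722504, was called in 4 of the 8 lists, hs1467 replicate 2 among them.

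Within 1 Mb either side of the lost segment lay 96 consensus regions, of which 49 were called in both hs1467 lists, 38 in 1 of them and 9 in neither. In 1 of the 96, the gap itself, all 6 sister lists and no hs1467 list had a call; the same held for 0.0421% of all consensus regions. Of the regions in this window that all 3 run mates called, hs1467 replicate 1 called 28 of 31 and hs1467 replicate 2 called 67 of 72. The sister lists of run 3 called 28 of 32 or 33, and those of run 4 called 67 of 70 or 72. The number called is the same for each list of a run by construction, since the list and its 3 run mates must all call the region. Only the number called by the run mates can differ, and the gap was left out of it. With the gap included, peaks of hs1467 replicate 1 covered 134.5 kb of the window, against 141.5 to 156.1 kb in the run 3 sister lists. Those of hs1467 replicate 2 covered 230.1 kb, against 195.7 to 240.9 kb in run 4.

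Of the 28 shared regions of the window, 9 ranked below all sisters in run 3 (25.7% of all shared regions did) and 9 in run 4 (24.6% of all). Above all sisters were 8 in run 3 (22.5% of all) and 4 in run 4 (25% of all). Below all sisters in both runs were 3, the left neighbour and the regions at chr11:111518571-111521112 and chr11:111985653-111988318, against 6.01% of all shared regions. None of the 28 was above all sisters in both runs, against 4.72% of all. The median rank difference over the 28 was -0.43 points in run 3 and -4.58 in run 4, beside 0.37 and 0.51 over all shared regions.

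The regions at chr11:111804753-111808655 and chr11:111967599-111970681 were below all sisters in run 3 (-23.7 and -8.99 points) and above all in run 4 (30.9 and 27.6 points). The region at chr11:111159822-111163634 was above all sisters in run 3 (10.2 points) and below all in run 4 (-18.4 points). For these 3 regions the direction in 1 run did not carry over to the other.

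**Figure D3:**
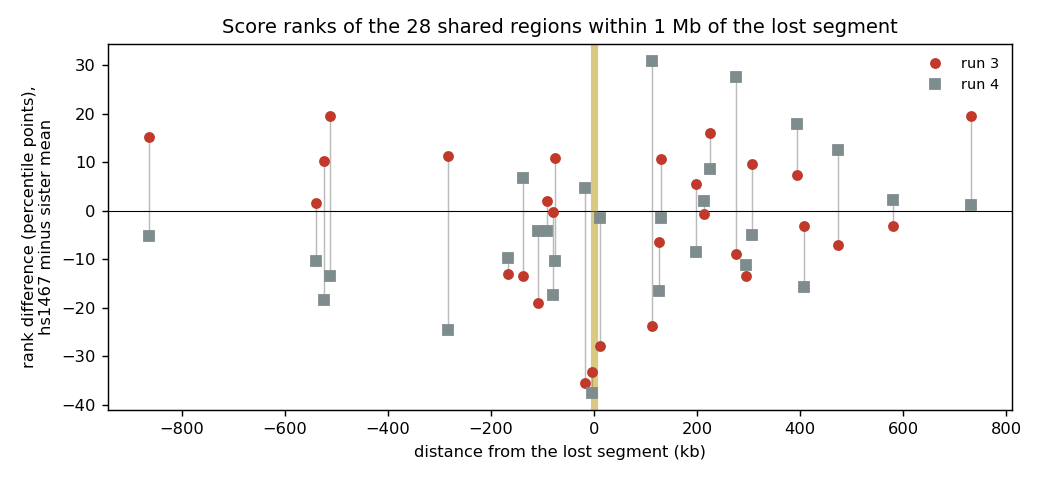
Rank difference (hs1467 minus the mean of the 3 sister lists, in percentile points) of the 28 shared regions within 1 Mb of the lost segment against distance from it in kb; circles are run 3, squares run 4, and a grey line joins the values of 1 region. The left neighbour is the region where both runs are below -30; most other pairs lie on both sides of 0 or near it.

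The widest region of the window, chr11:112638865-112650739, sits where Sox9 lies by general knowledge of this build, a placement made after its values were seen and not taken from an annotation. It was called in all 4 run 4 lists, where the peak score was 3100 in each. That score was shared by 3037 to 3629 peaks of each run 4 list, and the highest score there was 3233.06. Peaks covered 99.0% of it in hs1467 replicate 2 and 99.8%, 92.3% and 94.0% in hs1262, hs1586 and hs1603. In run 3 no list, hs1467 replicate 1 included, had a peak there, and all 10 lists of runs 1 and 2 did. The lists therefore cannot compare the score of hs1467 with its sisters at this region, because run 3 gives no call and run 4 gives all 4 lists the same score.

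Across the genome, hs1467 had 353 lost segments in both runs (440 tiles, 0.106% of the 416798 tiles called in any of the 8 lists). The sister lines, counted the same way, had 120 (hs1262), 267 (hs1586) and 396 (hs1603). The number for hs1467 lay within that range. Beside the segment on chromosome 11 at 111688001, the 5 longest included chr16:35556001-35558500 (2.5 kb), chr11:74933501-74935500 (2 kb) and chr10:94600501-94602500 (2 kb), whose peaks in the sister lists were weak, at mean percentiles of 22.2, 29.0 and 26.1 against 89.2 for the first. Each of them lacked any peak base in at least 6 lists of runs 1 and 2 as well.

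When all 16 other lists had to hold the tile, 1 lost segment was left, chr11:111688501-111691000 (2.5 kb), inside the first. Counted by consensus region, 25 regions were lost in both hs1467 lists (0.0421% of 59338), beside 27, 37 and 42 in the sister lines. Of the 25, 1 was called in all 10 lists of runs 1 and 2, and that was the region of the gap, chr11:111687191-111692487.

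Gained segments, called in both hs1467 lists and in no sister list, numbered 476 (717 tiles, 0.172% of tiles). The sister lines had 630 (hs1262), 380 (hs1586) and 297 (hs1603). By consensus region, 134 were gained in hs1467 (0.226%) and 46, 35 and 37 in hs1262, hs1586 and hs1603. The hs1467 number lay within the sister lines by segment and above all of them by region, and the 134 became 27 when each list was cut to its 26550 highest-scoring peaks. The sister lines were not recounted with cut lists, so the 27 cannot be set against their numbers. Of the 134, 61 were called in none of the 10 lists of runs 1 and 2. The same share over all consensus regions was not counted, so the 61 cannot be read as particular to gained regions. Most gained regions were narrow and weak: their median percentile was 13.3, their median width 1332 bp and their greatest width 2723 bp.

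The longest gained segment was chr2:52911501-52914000 (2.5 kb), and its region, chr2:52911498-52914220, had the highest mean percentile (82.5) of the gained regions of at least 1 kb. Over all widths, the region chr16:31549773-31550236, of 464 bp, was higher at 94.5. The percentile of the chromosome 2 region was 98.4 in hs1467 replicate 1, where the peak covered the whole region, and 66.5 in hs1467 replicate 2. None of the 6 sister lists had a peak base in it. The 4 wild-type lists all had a peak there, at percentiles 46.0, 75.2, 92.7 and 90.5. The 12 lists of the other knockout lines, including mm1179 KO and hs72 KO lists from the same runs as wild type, had none.

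Presence at this place thus separated hs1467 and wild type from the 5 other knockout lines, within runs 1 and 2 for wild type and within runs 3 and 4 for hs1467. Over the 63594 consensus regions of all 18 lists, 1 region was called in every wild-type and hs1467 list and in no other list, and it was this one. With hs1262, hs1586 or hs1603 in the place of hs1467 the number was 0 for each. The opposite pattern, no call in wild type and hs1467 and a call in every other list, was found at 0 regions. The pattern over wild type was looked for after the values were seen.

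The remaining 4 of the 5 longest gained segments were 2 kb each with mean percentiles from 17.3 to 38.1. They were chr13:28823501-28825500, chr4:82567501-82569500, chr3:136644001-136646000 and chr12:81381001-81383000. All of them lacked a peak base in at least 3 of the 4 wild-type lists, and the one on chromosome 3 lacked it in all 16 other lists. Their mean percentiles were all below the 82.5 of the segment on chromosome 2.

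Among the shared regions, 1077 (6.01%) ranked below all sisters in both runs in hs1467 and 845 (4.72%) ranked above. The corresponding numbers below were 976, 1347 and 749 for hs1262, hs1586 and hs1603, and above 768, 1043 and 1213. With a gap of at least 10 points in both runs, 93 regions were below in hs1467, beside 80, 70 and 51 in the sister lines. The hs1467 numbers were of the size found for a line with another enhancer deleted.

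After the left neighbour, the regions with the largest gap below were chr3:151840963-151844233, with ranks of 24.2 and 36.7 in hs1467 against at least 65.5 in run 3 and 62.4 in run 4, and chr2:84544014-84549488, with 4.29 and 2.85 against at least 45.6 and 25.5. They were followed by chr2:68148461-68157030, with 11.9 and 5.78 against at least 33.9 and 32.5. Other chromosomes than that of hs1467 thus held regions with gaps of 22.0 to 25.7 points. On the higher side, chr10:36950211-36953391 had ranks of 59.8 and 57.7 against means that were 25.2 and 26.5 points lower, and chr12:80529964-80536818 had 78.7 and 72.9 against means 20.4 and 40.8 points lower. The largest gap above was 16.5 points, less than the 27.2 points of the largest below. The order was the same in each sister line, with 19.7 and 26.2 in hs1262, 23.7 and 23.9 in hs1586 and 17.8 and 21.5 in hs1603.

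The properties of the whole lists differed between hs1467 and its run mates in run 3 and hardly in run 4. In run 3, hs1467 replicate 1 held 32472 peaks against 27250 ± 911 (SD, n = 3) in the sister lists, and its peaks were narrower, with a mean width of 2801 bp against 3338 ± 32.7 bp (SD, n = 3). These offset each other, and the covered length was 90.9 Mb against 90.9 ± 2.31 Mb. In run 4, hs1467 replicate 2 held 56475 peaks against 56714 ± 2204, with a mean width of 2872 bp against 2704 ± 117 bp and a covered length of 162 Mb against 153.5 ± 12.6 Mb. The peak number and the covered length of run 4 fell within the sister lists, and the width was above all 3.

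Retention is the percentage of the regions called by all 3 run mates that a list also called. It was 95.4% in hs1467 replicate 1 against 91.3 ± 1.55% and 96.0% in hs1467 replicate 2 against 95.5 ± 1.93% (SD, n = 3 each). Private regions, those of a list that none of its run mates called, made up 11.3% of the regions of hs1467 replicate 1 against 5.84 ± 0.955%, and 0.692% of those of hs1467 replicate 2 against 0.642 ± 0.261%. The Jaccard index, the share of covered bases that a pair of lists has in common, averaged 0.623 with the run mates in run 3 against 0.638 ± 0.0115 and 0.738 in run 4 against 0.736 ± 0.00704. In run 3, hs1467 replicate 1 was outside the sister lists in peak number, width, retention, private regions and Jaccard index.

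None of the 6 measures differed by a test over both runs. The exact two-sided permutation test within runs has 16 arrangements, so its smallest p is 1 in 16 and none of these comparisons could pass 0.05. The averaged difference was 2492 peaks (exact p = 0.3125), 4.34 Mb (exact p = 0.625), -184.6 bp (exact p = 0.3125), 2.24 percentage points of retention (exact p = 0.25), 2.75 percentage points of private regions (exact p = 0.125) and -0.00673 in the Jaccard index (exact p = 0.5625). Adjusted by Benjamini-Hochberg over the 6 measures, the exact p-values were 0.469 for 4 of them and 0.625 for covered length and Jaccard index. A p that misses the threshold does not show that the lists are alike.

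**Figure D4:**
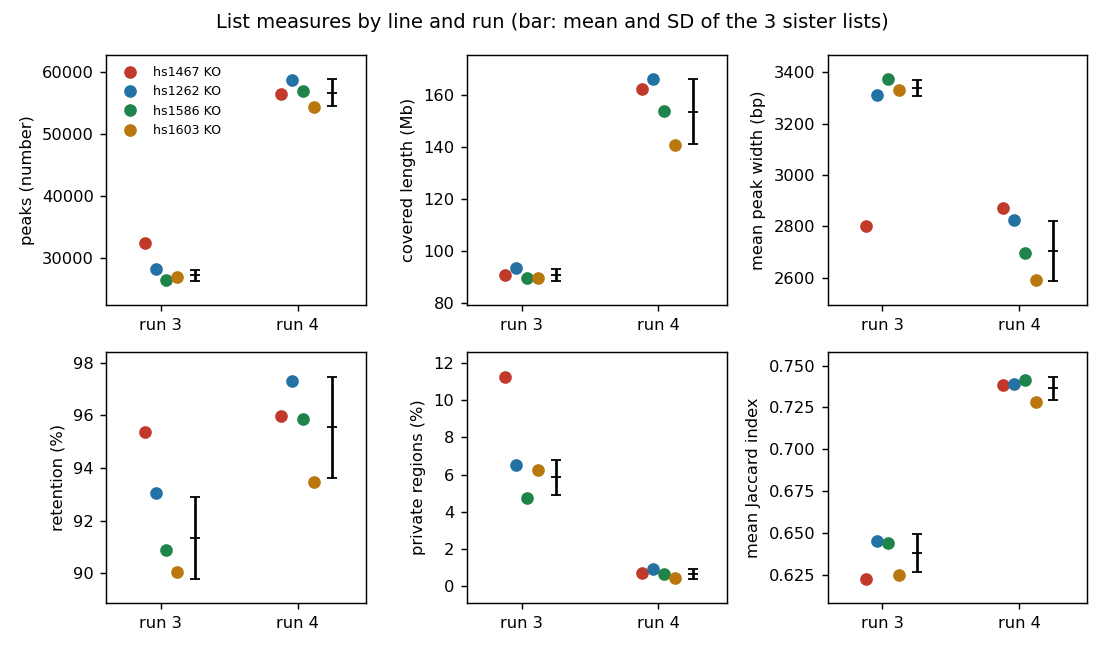
The 6 list measures for the 4 lines in run 3 and run 4, with axes that do not start at 0; each point is 1 list, and the black bar gives the mean and SD of the 3 sister lists. In run 3 the hs1467 point lies above the sisters in peak number, retention and private regions and below them in width; in run 4 it lies within or close to them.

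Lists of run 3 missed many regions that all 14 lists outside run 3 called, and hs1467 replicate 1 kept more of the wide ones than its run mates. Of 19031 regions called in all 14 lists outside run 3, hs1467 replicate 1 called 69.9%, hs1262 replicate 1 70.5%, hs1586 replicate 1 66.7% and hs1603 replicate 1 58.1%. Of the 27 regions of at least 32 kb it called 24, and its peaks covered 67.7% of their bases, against 45.3%, 36.0% and 33.9% in the same order of sister lines. Of the 235 regions of 16 to 32 kb it called 85.1%, against 72.8%, 75.3% and 60%. In regions of 2 to 4 kb it called 61.2%, between the 51.7% of hs1603 and the 63.1% of hs1262, so that it stood apart at the wide regions and not at the narrow ones.

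Of these regions, 434 were called in run 3 by hs1467 replicate 1 alone and 84 were missed by it alone. The lists of hs1262, hs1586 and hs1603 had 593, 244 and 16 called alone and 139, 237 and 1183 missed alone, so the number called alone was higher in hs1262 than in hs1467. An example of the first kind was chr9:63805030-63835604 (30.6 kb), covered to 96.2% in hs1467 replicate 1, to 0% in its 3 run mates and to at least 96.6% in each run 4 list. Another was chr13:23828398-23858848, with 99.3% against 0% in the run mates. An example of the second kind was chr8:125180647-125192327 (11.7 kb), covered to 0% in hs1467 replicate 1 and to 97.6% to 98.9% in the run mates. In wild type the first example was covered to 83.0% to 96.2% and the last to 72.5% to 93.8%. A wild-type peak was required at each place, because the regions were those called in all lists outside run 3.

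**Figure D5:**
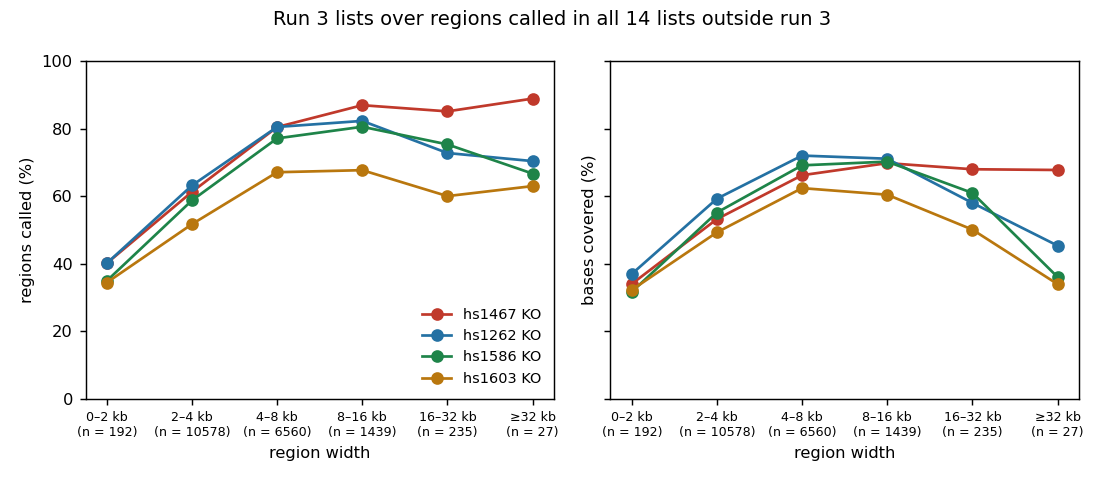
Regions called in all 14 lists outside run 3, by width class (n regions each): percentage called (left) and percentage of their bases covered (right) in the 4 run 3 lists. At regions of at least 32 kb the hs1467 line covers 67.7% of bases and the sister lines 33.9% to 45.3%.

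In a single run the numbers of lost segments were far larger than in both. In run 3 alone, 8159 segments were called in all 3 sister lists and not in hs1467 (5.1% of the tiles of that run), and 5789 were gained (6.92%). In run 4 alone 4877 were lost (2.08%) and 14521 gained (5.82%). The 353 and 476 found in both runs are smaller by construction, since more lists must agree. How many would recur by chance was not computed, so these counts do not show whether recurrence was low. Among the lost segments of hs1467 in both runs, the one on chromosome 11 was the longest and was strong in the sister lists. Such a segment was not particular to hs1467. Counted the same way, the longest was 3.5 kb in hs1586 (mean percentile 88.1 in the lists calling it) and 4 kb in hs1603 (92.5). In hs1262 it was 2 kb (38.1).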

How the data were processed

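H3K27ac ChIP-seq peaks of pooled forelimbs were deposited as 1 list per library (18 libraries; the 18 inputs have no list of their own). The submitters' processing notes name MACS 1.4.2 (peak calling software), Bowtie 0.12.8 (an aligner) and cutadapt 1.1, besides bcl2fastq 2.17, CASAVA and the build mm9, without settings. Each list as deposited by the authors holds peak bounds and a score of at least 40, and up to 3629 peaks of a list share the score 3100. Lists carry no read counts, so sequencing depth is unknown and no interval on single values can be given.

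From these lists, coverage, tiles, consensus regions, score percentiles and ranks were computed in Python 3.11.15 with numpy 2.4.6 and pandas 2.3.3, and the scripts were tested on simulated data. The run tags in the names of the lists served as technical batch. Replicate number and run coincide in these 4 lines, so the number marks a shared run and was the block of each test; a region was called by an overlap of 1 bp. Regions are named by length, rank gap or distance from the longest lost segment. The members and lists were chosen with earlier results of these data known. Alternatives were a minimum score of 100, equal lists, autosomes only, other tiles, overlaps and windows, no block, and leaving out each list. Gene names were not assigned from an annotation.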

Additional observations from a re-analysis of the deposited data

Results flagged for a closer look

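The mean peak width of hs1467 replicate 1, 2801 bp, lay far from the other 3 lists of run 3, which spanned 3310 to 3374 bp; this test marks about 1 in 20 groups of 4 by chance. The width of hs1467 minus the mean of the sister lists had opposite signs in the runs, -537 bp in run 3 and 168 bp in run 4, and this difference between runs was not tested. In run 3 the hs1467 list also had the most peaks (32472, against 28280 or fewer) and a median score of 109 against 96.5 to 105. Whether either bears on the width was not tested.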

How the results depend on the processing

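The 6 list measures were tested in 71 alternatives. Those with 16 arrangements or fewer (12 or 4 with 1 list left out) cannot pass the threshold of the exact permutation test and say nothing about stability. Without the replicate block (28 arrangements) differences were by construction the same (2492 peaks, 4.34 Mb, -184.6 bp, 2.24 and 2.75 percentage points and -0.00673). The exact permutation p-values were 0.607 for peak number, 0.786 for covered length and 0.464 for width. For retention, private regions and the Jaccard index the exact permutation p-values were 0.357, 0.429 and 0.75. The blocked test could make no call, so whether the block changes one cannot be read here. With equal lists of 26550 peaks, covered length turned to -1.66 Mb and retention to -0.428 points; peak number then has no value. Leaving out 1 list, the differences ranged from -239 to 5222 peaks, from -537 to 168 bp in width and from -0.0153 to 0.00183 in the Jaccard index, and turned only without hs1467 replicate 1. Covered length ranged from 0.00698 to 8.67 Mb (without hs1467 replicates 2 and 1), with 7.46 Mb without hs1262 replicate 2 and 1.18 Mb without hs1603 replicate 2. Retention ranged from 0.451 to 4.06 points (without hs1467 replicates 1 and 2), with 1.08 points without hs1603 replicate 2 and 3.45 points without hs1262 replicate 1. The Jaccard difference was -0.00253 without hs1586 replicate 1, -0.00352 without hs1586 replicate 2 and -0.0102 without hs1603 replicate 2. Private regions ranged from 0.0768 to 5.18 points (without hs1467 replicates 1 and 2).

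Lost segments numbered 195 with tiles of 1000 bp, 129 at a score of at least 100, 1389 with 5 of 6 sister lists, 1 against all 16 other lists, 8159 in run 3 and 4877 in run 4. Gained segments numbered 192 at a score of at least 100, 172 in equal lists, 1569 with 5 of 6 sister lists, 313 against all 16, 5789 in run 3 and 14521 in run 4. Lost regions fell to 5 at a score of at least 100; gained regions fell to 21 there and to 27 in equal lists. Leaving out 1 list relaxes the criterion, and gave 434 to 4518 lost segments, 570 to 10726 gained segments, 28 to 771 lost regions, 0 to 291 gained regions (0 without an hs1467 list, since a region needs 2 lists), 1 to 4 lost neighbouring regions, 1392 to 4612 shared regions below and 1059 to 4672 above all sisters. Moves by over 1.5 times came without either hs1467 list (lost neighbouring regions: replicate 2 only). They also came without hs1262 replicate 1 (556 lost segments, 46 lost regions, 1674 regions below and 1306 above), hs1586 replicate 1 (573, 71 lost regions and 1326 above), hs1603 replicate 1 (1281 above), hs1603 replicate 2 (659 lost segments, 206 gained regions and 1537 above), hs1262 replicate 2 (880 gained segments and 291 gained regions) and hs1586 replicate 2 (254 gained regions).

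Scores of at least 100 and equal lists only drop peaks, so hs1467 stays at 0 bp in the chromosome 11 segment. The 6 sister peaks there and chromosome 2 calls stayed. The rank gap of the left neighbour was 25.5 to 33.2 points with 1 list left out and 34.1 with the score of the widest peak; it was first in order except without hs1586 replicate 2 (place 2), hs1603 replicate 2 (place 3), hs1467 replicate 1 (place 24) and hs1467 replicate 2 (place 246). Unknown depth and the run 4 score ceiling limit comparisons of strength.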

Other observations

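The longest gap of each single hs1467 list was covered in the other replicate. In run 4 the longest segment missing from hs1467 replicate 2 was chr4:106640501-106663000 (22.5 kb), with 0% covered there and in hs1262 replicate 1, 96.9% in hs1467 replicate 1 and 54.96% or more in each of the other 15 lists. In run 3 the longest missing from hs1467 replicate 1 was chr10:120862001-120880000 (18 kb), where hs1467 replicate 2 had all 36 tiles called and every one of the other lists had a peak.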
